A study of Mus musculus with 4 samples.

Results

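The genes described here were 53 genes that a cell uses to copy its DNA and to divide, among them the Mcm, Cdc6 and Rrm genes of DNA replication and the Kif, Bub1 and Cenp genes of mitosis. They were chosen by name and not by a cut on their levels, though earlier results of these data were known. All 53 were found among the 24445 genes of the deposited table. They were split by their known function into 15 replication members, 7 regulator members (transcription factors and cyclins of the step from G1 to S phase) and 31 mitosis members. Averaged over both genotypes, every member was at 1 FPKM or more (a count of fragments scaled to transcript length and to the size of the library), a level that 11692 genes of the table reached.

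The levels came from cultured primary myoblasts of C57BL/6 mice, either wild type (WT) or lacking Tet2 in every tissue (Tet2 KO), with 2 RNA sequencing libraries of each genotype. Tet2 oxidises 5-methylcytosine in DNA, and the study made the knockout by deleting exon 3 to ask what Tet2 does in muscle regeneration. Satellite cells, from which adult muscle is rebuilt, had been sorted from hindlimb muscle of both genotypes as CD34+ Integrin a7+ cells without propidium iodide, CD45, CD11b, CD31 or Sca1 staining, and were kept on type I collagen in a proliferation medium for at least 3 days, by which time they were MyoD+ myoblasts. No differentiation or other treatment is given in the labels, and they do not say whether the libraries of a genotype came from separate animals. The study's general methods give young adult male mice unless stated otherwise. The table held 1 FPKM value for each gene and genotype, so no value below has a replicate error, no difference was tested, and "higher" or "lower" refers to those 2 numbers alone.

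A dividing cell first loads the MCM helicase onto replication origins with ORC, Cdc6 and Cdt1, and then opens the origins and copies the DNA in S phase, for which ribonucleotide reductase and thymidylate synthase supply the nucleotides. Cyclins A and B with Cdk1 then drive it into mitosis, where the kinetochores, the spindle checkpoint, motor proteins and the chromosomal passenger complex segregate the chromosomes and cytokinesis separates the daughter cells. The replication genes are known targets of E2F transcription factors, which the Rb protein holds in check, and the mitosis genes of B-Myb, FoxM1 and the DREAM and MuvB complexes, which act through CHR elements. Myoblasts leave this cycle when they differentiate into muscle fibres.

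Promoters are shown first, because the replication and mitosis members differed in the words they held. The RefSeq promoter table (build GRCm38.p6, 250 bases before to 50 bases after each start) held 44 of the 53 members. Kif20a, Ccne2, Foxm1, Incenp, Tpx2, Gmnn, Mcm4, Ccna2 and Aurkb had no entry. The words searched, on both strands, were TTTCCCGC or TTTGGCGC (the E2F word), TTTGAA (the CHR word), CCAAT (the binding word of NF-Y), GGGCGG (the GC box) and CAGCTG (the E-box preferred by MyoD). No word is contained in another of the set, though neighbouring matches may share bases. The 6 promoters printed are those of Mcm6, E2f2, Rrm2, Mki67, Cdc20 and Kif23, which span the E2F and CHR words and both ends of the range of ratios described later, and capitals mark the E2F, CHR and CCAAT words on either strand. All are written 5′ to 3′ on the strand of the gene. Mcm6 lies on the minus strand at chr1:128359656-128359955, E2f2 on the plus strand at chr4:136172024-136172323, Rrm2 on the plus strand at chr12:24708004-24708303, Mki67 on the minus strand at chr7:135716330-135716629, Cdc20 on the minus strand at chr4:118437294-118437593 and Kif23 on the minus strand at chr9:61946750-61947049.
Mcm6: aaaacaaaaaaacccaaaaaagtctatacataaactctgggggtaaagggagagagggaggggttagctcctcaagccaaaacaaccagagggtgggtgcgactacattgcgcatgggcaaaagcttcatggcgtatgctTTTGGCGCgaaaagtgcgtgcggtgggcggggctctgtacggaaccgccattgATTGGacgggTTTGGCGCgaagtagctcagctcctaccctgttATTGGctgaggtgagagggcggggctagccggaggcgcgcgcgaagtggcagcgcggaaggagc
E2f2: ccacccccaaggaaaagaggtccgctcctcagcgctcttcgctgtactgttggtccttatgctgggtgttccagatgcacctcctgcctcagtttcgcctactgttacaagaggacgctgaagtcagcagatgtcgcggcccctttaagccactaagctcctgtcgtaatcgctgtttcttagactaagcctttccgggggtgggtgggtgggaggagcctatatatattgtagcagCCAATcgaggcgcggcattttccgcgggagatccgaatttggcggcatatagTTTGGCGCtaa
Rrm2: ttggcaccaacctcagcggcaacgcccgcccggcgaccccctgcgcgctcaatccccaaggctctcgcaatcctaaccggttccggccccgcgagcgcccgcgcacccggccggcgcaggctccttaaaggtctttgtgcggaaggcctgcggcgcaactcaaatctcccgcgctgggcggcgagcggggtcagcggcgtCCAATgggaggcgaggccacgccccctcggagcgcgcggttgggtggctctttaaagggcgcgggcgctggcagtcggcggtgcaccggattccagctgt
Mki67: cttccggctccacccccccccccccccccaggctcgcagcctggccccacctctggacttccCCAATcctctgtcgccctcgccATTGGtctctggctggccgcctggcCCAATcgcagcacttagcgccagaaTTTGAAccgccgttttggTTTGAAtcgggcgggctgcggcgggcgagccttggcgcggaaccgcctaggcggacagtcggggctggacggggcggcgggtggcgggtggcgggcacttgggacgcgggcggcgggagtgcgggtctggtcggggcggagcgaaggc
Cdc20: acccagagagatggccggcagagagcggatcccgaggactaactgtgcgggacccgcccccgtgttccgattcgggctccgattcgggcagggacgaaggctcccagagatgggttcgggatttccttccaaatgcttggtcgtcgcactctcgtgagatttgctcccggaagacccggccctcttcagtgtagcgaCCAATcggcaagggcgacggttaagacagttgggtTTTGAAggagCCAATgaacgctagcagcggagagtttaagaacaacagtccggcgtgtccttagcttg
Kif23: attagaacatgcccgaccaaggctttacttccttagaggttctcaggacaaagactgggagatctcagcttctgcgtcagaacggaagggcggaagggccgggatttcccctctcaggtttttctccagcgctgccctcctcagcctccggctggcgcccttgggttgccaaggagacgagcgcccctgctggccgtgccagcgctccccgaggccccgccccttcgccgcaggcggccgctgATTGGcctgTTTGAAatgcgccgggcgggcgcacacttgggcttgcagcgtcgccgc

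The Mcm6 promoter held an E2F word at positions -110 and -47 from the start, and CCAAT words at -57 and -14. In E2f2 the printed start had an E2F word at position 39 and a CCAAT word at -13. A second annotated start of E2f2, not printed, held a CHR word at -31 and CCAAT words at -174, -133 and -53. Rrm2 held neither an E2F nor a CHR word and had a CCAAT word at -50. The 3 mitosis promoters all held a CHR word, at -116 and -98 in Mki67, at -18 in Cdc20 and at 2 in Kif23, with CCAAT words at -188, -166 and -141 in Mki67, at -53 and -8 in Cdc20 and at -7 in Kif23. A match describes the letters only. It is not evidence that a factor binds there, and a missing word says only that these letters were not in the window.

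Counted over the members with a promoter, the E2F word was found in 6 of 13 replication members (46.2%), namely Cdc6, Cdt1, Mcm3, Mcm5, Mcm6 and Mcm7. It was found in 1 of 5 regulator members, E2f2, and in 0 of 26 mitosis members. It was held by 1.80% of all 27025 genes with a RefSeq promoter and by 3.68% of the 9114 of them expressed here (mean FPKM of 1 or more). The CHR word showed the opposite split, in 19 of 26 mitosis members (73.1%), 2 of 5 regulator members and 2 of 13 replication members (15.4%), Mcm2 and Cdc45. Its share was 20.2% of all genes with a promoter and 14.1% of those expressed here. The CCAAT word was as frequent in replication as in mitosis members, 76.9% in each, with 43.2% of the expressed genes. GC boxes were found in 84.1% of the members and 70.0% of the expressed genes, and the MyoD E-box in 15.9% of the members and 17.7% of the expressed genes. With the window restricted to 100 bases before the start, all 19 of these mitosis members still held a CHR word. An E2F word was still held by 3 of the 6 replication members. These are counts of genes, and single matches further from the start were lost in both classes.

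**Figure D1:**
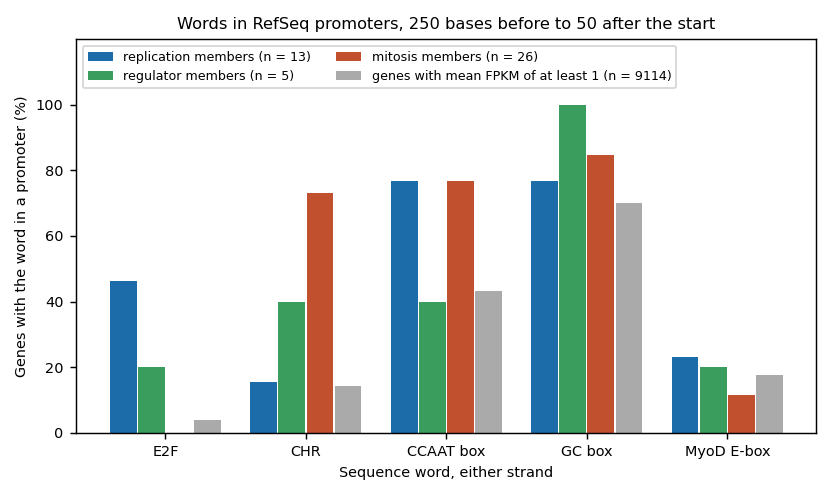
Share of genes (%) whose RefSeq promoter held each word on either strand, for replication members (n = 13), regulator members (n = 5), mitosis members (n = 26) and all expressed genes (mean FPKM of 1 or more, n = 9114). The E2F word was in 46.2% of the replication and none of the mitosis members, and the CHR word in 15.4% and 73.1% of them.

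The cells and the targeted gene were checked before the ratios. Tet2 itself was listed at 5.79 FPKM in Tet2 KO against 6.64 FPKM in WT. The value covers the whole gene and does not show the deleted exon 3 on its own, so it does not check the genotype. The 9 myoblast markers were present in both genotypes and summed to 1439 FPKM in Tet2 KO against 1496 FPKM in WT, with Myod1 at 313 and 336 FPKM. These markers did not move as one, since 3 of the 9 were higher in Tet2 KO, with Cd34 at 6.74 and 3.03 FPKM, Vcam1 at 88.6 and 72.6 FPKM and Sdc4 at 315 and 267 FPKM, while Des had 372 and 449 FPKM and Cdh15 had 84.3 and 97.4 FPKM. All 12 leukocyte markers were at least 1.5-fold higher in Tet2 KO, where 6.61% of the expressed genes were that far apart in either direction. The 12 markers had sums of 476 and 122 FPKM, and none of them was at 0. Lyz2 alone gave 253 and 59.5 FPKM, while Ptprc, which encodes the CD45 used to remove leukocytes in the sort, was at 5.67 and 1.36 FPKM. The 8 lymphocyte markers summed to 1.36 and 1.12 FPKM with none reaching a mean of 1, and Cd3e was listed at 0 in Tet2 KO and Cd3g and Ms4a1 at 0 in WT. The 7 endothelial markers summed to 3.91 and 4.65 FPKM. Of the 8 fibroblast markers, 7 had a mean of 1 FPKM or more, and all 7 had the higher value in Tet2 KO, where 48.8% of the expressed genes did. Their median log2 ratio was 0.32, and 2 were past 1.5-fold, Dcn with 7.04 and 3.15 FPKM and Col1a2 with 15.8 and 8.71 FPKM. The 8 summed to 489 and 447 FPKM, most of it from Col3a1 with 170.8 and 152 FPKM and from Ly6a, which encodes Sca1, with 288 and 278 FPKM. None of the fibroblast markers was at 0. The part that a different cell mixture has in the values of the members was not tested. In RNA from bulk cultures, a larger share of cells in cycle and more transcript per cycling cell cannot be told apart. From other measurements, among them EdU labelling of MyoD+ cells, the study reported no effect on proliferation of Tet2 KO myoblasts in culture or in the animal. It also reported unchanged expression of proliferation related genes. How those measurements relate to the values given here was not tested.

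The differences of the members were small and mostly in one direction. Of the 53 members, 47 (88.7%) had a higher value in Tet2 KO than in WT, where 48.8% of the 11692 expressed genes (mean of 1 FPKM or more) did. The median log2 ratio, taken as log2 of (Tet2 KO FPKM + 1) over (WT FPKM + 1), was 0.09, where that of all genes was -0.0044, and the members ran from -0.10 for Kif23 to 0.30 for Mki67. The 6 members with a lower value in Tet2 KO were Rrm1, Ndc80, Kif11, Prc1, Hmmr and Kif23. At least 1.1-fold higher were 14 members (26.4%), against 17.9% of all genes, and 0 members were at least 1.1-fold lower, against 20.1%. No member reached 1.5-fold in either direction, which 6.61% of all genes did. At a mean of at least 5 FPKM, which all members passed, the background was 48.8% higher, 14.7% at least 1.1-fold higher, 17.8% at least 1.1-fold lower and 4.38% at least 1.5-fold apart in either direction. Summed over the 53 members, the level was 3999 FPKM in Tet2 KO against 3770 FPKM in WT.

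**Figure D2:**
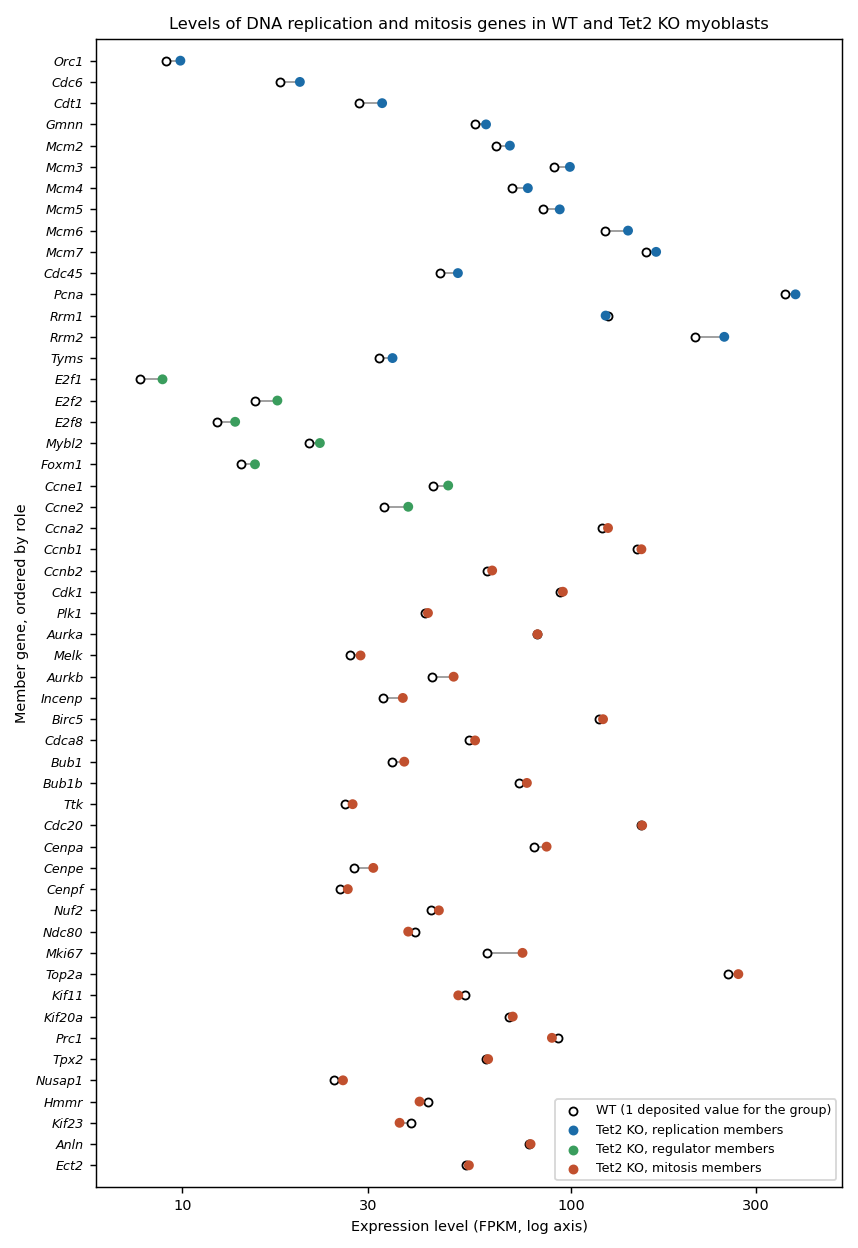
Level of each of the 53 members (FPKM, log axis) in WT (open points) and Tet2 KO (filled points, coloured by class), with 1 deposited value for each genotype and therefore no error bars. The filled point lies to the right of the open one for 47 members, and the distance is short beside the range of mean levels between genes, from 8.32 FPKM for E2f1 to 368 FPKM for Pcna.

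The replication members showed larger ratios than the mitosis members. Among the 15 replication members 14 (93.3%) were higher in Tet2 KO, against 48.8% of all genes, the median log2 ratio being 0.13. At least 1.1-fold higher were 6 (40%), against 17.9% of all genes. The summed level of the 15 was 1605 FPKM against 1468 FPKM, or 9.32% higher. Among the 31 mitosis members 26 (83.9%) were higher, with a median of 0.04. At least 1.1-fold higher were 4, a share of 12.9% that is not above the 17.9% of all genes. The summed level of the 31 was 2229 FPKM against 2154 FPKM, or 3.49% higher. The median of the mitosis members was thus 0.09 lower on the log2 scale. In detail, 27 of the 31 mitosis members lay below the median of the replication members, and 14 of the 15 replication members lay above the median of the mitosis members, the exception being Rrm1. The 4 mitosis members above the replication median were Mki67, Aurkb, Incenp and Cenpe. Genes are not replicates, so this difference between classes has no test either.

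With only the genes of the Mcm, Cdc6 and Rrm names (9 members) set against those of the Kif, Bub1 and Cenp names (8 members), the medians were 0.13 and 0.07. The 9 ran from -0.02 for Rrm1 to 0.25 for Rrm2. Among the 8, Kif11, Kif20a and Kif23 had -0.05, 0.03 and -0.10. The Bub1 and Cenp genes were all above these, from 0.06 for Cenpf to 0.16 for Cenpe. Neither transcript length nor level ordered the ratios much across the 53 members, with Spearman's rho of 0.04 against transcript length and -0.25 against mean FPKM. These coefficients are across genes of the same 2 values and are given as a description.

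**Figure D3:**
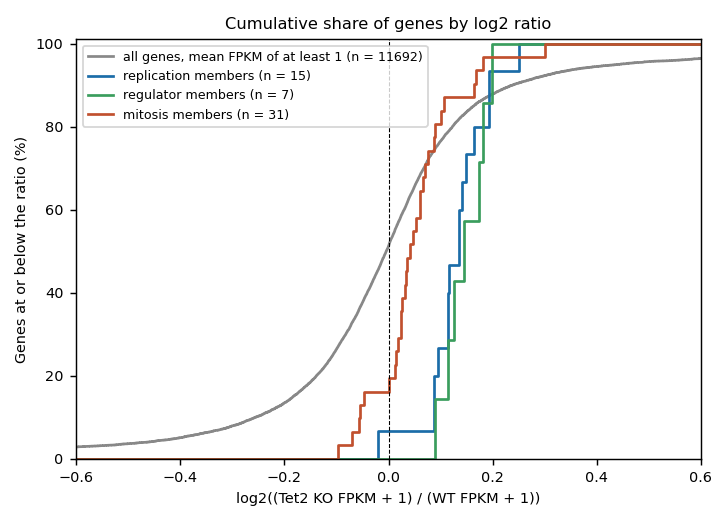
Cumulative share of genes (%) by log2 ratio of Tet2 KO over WT (pseudocount 1) for the 15 replication, 7 regulator and 31 mitosis members and for the 11692 expressed genes (mean FPKM of 1 or more). Around the medians, of 0.13, 0.15 and 0.04, the curves of the replication and regulator members lie to the right of that of the mitosis members. At the upper end the mitosis curve reaches furthest right, to 0.30 for Mki67. All genes cross 50% near 0.

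Origin licensing came first by role, and its 4 members were all higher in Tet2 KO, where 48.8% of all genes were. Counts in roles of so few genes, here and below, say little on their own. Orc1, the large subunit of the origin recognition complex, had 9.88 FPKM in Tet2 KO against 9.05 FPKM in WT. Cdc6, which loads the helicase, had 20.1 and 17.8 FPKM, a level 12.7% higher. Cdt1, the other loading factor, had 32.7 and 28.4 FPKM, which was 14.9% higher. Gmnn encodes geminin, the inhibitor of Cdt1, and had the smaller difference of the pair, with 60.5 and 56.5 FPKM or 6.99% more in Tet2 KO. The inhibitor was thus listed above its target in both genotypes.

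The 6 subunits of the MCM helicase, which unwinds the DNA ahead of the fork, were all higher in Tet2 KO, by 6.22% to 14.4%. Of all genes, 48.8% were higher. Mcm2 had 69.7 FPKM in Tet2 KO against 64.2 FPKM in WT, and Mcm3 had 99.4 and 90.5 FPKM. Mcm4 had 77.5 and 70.5 FPKM, and Mcm5 had 93.6 and 84.8 FPKM. Mcm6 had the largest ratio of the 6, with 140.3 and 123 FPKM and a log2 ratio of 0.19. It spans positions 130228152 to 130256282 on the minus strand of chromosome 1 in mm9. Mcm7 was listed highest and had the smallest ratio of the 6, with 166 and 156 FPKM. The subunits act in equal numbers in the ring, while their levels in WT covered 64.2 to 156 FPKM. Of the Mcm7 transcript, 80.2% had a near-identical stretch elsewhere in the mm9 genome, so its level is less certain than those of the other subunits.

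At the fork and in nucleotide supply, 4 of 5 members were higher in Tet2 KO, where 48.8% of all genes were. Rrm2, the small subunit of ribonucleotide reductase and the one made in S phase, had 248 FPKM in Tet2 KO against 208 FPKM in WT. This was 19.1% more and, at a log2 ratio of 0.25, ranked second of all members. Its partner Rrm1, the large subunit, had 123 and 125 FPKM and was the one replication member with a lower value in Tet2 KO, at a difference of -1.44%. The genes of this 2-subunit enzyme therefore lay at opposite ends of the replication members. Cdc45, a part of the active helicase, had 51.2 and 46.1 FPKM. Pcna, the sliding clamp of the polymerases, was the member with the highest level, at 379 and 356 FPKM. Tyms, which makes thymidylate, had 34.7 and 32.0 FPKM. Near-identical stretches elsewhere covered 82.8% of the Pcna, 58.5% of the Cdc6 and 40.0% of the Rrm2 transcript.

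All 7 regulator members had the higher value in Tet2 KO, where 48.8% of all genes did. Their log2 ratios ran from 0.09 to 0.20 around a median of 0.15. At least 1.1-fold higher were 4 (57.1%), against 17.9% of all genes. The 5 transcription factors were among the members with the lowest levels, and the sum of all 7 was 165 FPKM in Tet2 KO against 148 FPKM in WT, 11.1% more. E2f1 and E2f2, activators of S phase genes, had 8.89 against 7.76 FPKM and 17.6 against 15.4 FPKM, differences of 14.5% and 14.2%. E2f8, an E2F that represses transcription, had 13.7 and 12.3 FPKM and was higher too, by 11.4%. Among the members, E2f8 thus did not part in direction from E2f1 and E2f2. The E2F genes listed with the Rb family did part. E2f4 was lower in Tet2 KO, with 40.4 and 43.8 FPKM, and E2f5 was higher, with 10.7 and 9.61 FPKM.

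The regulators of mitotic transcription had lower ratios than E2f1 and E2f2. Mybl2, which encodes B-Myb, had 22.6 FPKM in Tet2 KO against 21.2 FPKM in WT, a log2 ratio of 0.09. Foxm1, the forkhead factor that turns on mitotic genes, had 15.4 and 14.1 FPKM, a log2 ratio of 0.11. The E-type cyclins, which activate Cdk2 at the entry into S phase, had 48.3 and 44.2 FPKM for Ccne1 and 38.1 and 33.1 FPKM for Ccne2. Ccne2 was 15.2% higher and had the largest ratio of the 7, though 17.4% of its exon bases overlap Ints8 on the opposite strand. Whether the reads were counted by strand is not given in the sources used here, so reads of the 2 genes may not be told apart.

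The cyclins and kinases that carry a cell into mitosis were listed at almost the same level in both genotypes. Ccna2, the cyclin of S and G2 phase, had 125 FPKM in Tet2 KO against 121 FPKM in WT. Ccnb1 and Ccnb2, the mitotic cyclins, had 152 against 148 FPKM and 62.7 against 60.9 FPKM. Cdk1, their catalytic partner, had 95.4 and 93.8 FPKM. The differences of these 4 genes ran from 1.70% to 3.36%, all towards Tet2 KO, where 48.8% of all genes were higher. Ccnb1 had near-identical stretches elsewhere over 83.1% of its transcript, and Ccna2 shares 14.6% of its exon bases with Exosc9 on the opposite strand.

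Among the mitotic kinases, Plk1, which acts at centrosomes and kinetochores, had 42.9 FPKM in Tet2 KO against 42.2 FPKM in WT. Aurka, the Aurora kinase of the spindle poles, had the smallest difference of all members, with 82.1 and 82.0 FPKM. Melk, a kinase made in dividing cells, had 28.7 and 27.0 FPKM. Aurka thus contrasted with Aurkb, the Aurora kinase of the chromosomal passenger complex, which had 49.9 and 43.9 FPKM and was 13.6% higher in Tet2 KO. Incenp, the scaffold that activates Aurkb, had 36.9 and 32.8 FPKM and was 12.7% higher. The other two subunits, Birc5 (survivin) and Cdca8 (borealin), bring the complex to the centromere. Birc5 had 121 and 118 FPKM and Cdca8 had 56.7 and 54.6 FPKM, differences of 2.30% and 3.82%. The passenger complex therefore held 2 of the 4 mitosis members past 1.1-fold and 2 near the class median.

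The spindle checkpoint holds the cell in metaphase until every chromosome is attached. Bub1 had 37.2 FPKM in Tet2 KO against 34.7 FPKM in WT, Bub1b (BubR1) had 77.0 and 73.3 FPKM, and the kinase Ttk (Mps1) had 27.4 and 26.3 FPKM. These 3 checkpoint genes were between 4.42% and 7.41% higher. Cdc20, the activator of the anaphase-promoting complex that the checkpoint restrains, had 153 and 151 FPKM, only 0.86% apart.

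The centromere and kinetochore members ranged more widely. Cenpa, the centromeric histone H3 variant, had 86.6 FPKM in Tet2 KO against 80.4 FPKM in WT. Cenpe, the kinesin of the kinetochore, had 30.999 and 27.6 FPKM and was 12.4% higher, while Cenpf, a large kinetochore and matrix protein, had 26.7 and 25.5 FPKM. Nuf2 and Ndc80, which pair within the complex that grips microtubules, were listed on opposite sides. Nuf2 had 45.7 and 43.6 FPKM, 4.83% more in Tet2 KO, and Ndc80 had 38.1 and 39.7 FPKM, a difference of -3.91%.

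Mki67 had the largest ratio of the 53 members, with 75.1 FPKM in Tet2 KO against 60.7 FPKM in WT, a log2 ratio of 0.30 or 23.6% more. It encodes Ki-67, the coat protein of mitotic chromosomes that is used as a marker of cycling cells, and spans positions 142881471 to 142908062 on the minus strand of chromosome 7 in mm9, with a longest coding transcript of 10075 bases. Top2a, the topoisomerase that untangles sister chromosomes, had 269.8 and 254 FPKM, which was 6.41% more. Top2a was second in level to Pcna among the members.

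The motors and builders of the spindle were the role with the lowest median, -0.01 on the log2 scale, close to the -0.0044 of all genes. Of the 6, 3 were lower and 3 higher in Tet2 KO, a share near the 48.8% of all genes that were higher. Kif11, the kinesin that pushes the poles apart, had 51.3 FPKM in Tet2 KO against 53.3 FPKM in WT. Prc1, which bundles the microtubules of the central spindle, had 89.4 and 92.4 FPKM. Hmmr, a microtubule-bound spindle protein, had 40.8 and 42.9 FPKM, a difference of -4.92%. The other three were slightly higher. Kif20a, a kinesin of the central spindle, had 70.9 and 69.2 FPKM, and 32.3% of its exon bases overlap Cdc23 on the opposite strand. Tpx2, the activator of Aurka, had 61.2 and 60.4 FPKM, and Nusap1, a microtubule binder at the chromosomes, had 25.9 and 24.5 FPKM.

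Cytokinesis closed the series of roles. Kif23, the kinesin of the midbody, had 36.2 FPKM in Tet2 KO against 38.8 FPKM in WT, the lowest log2 ratio of all members at -0.10, or a difference of -6.63%. The gene spans positions 61765085 to 61794606 on the minus strand of chromosome 9 in mm9. Anln (anillin), a scaffold of the contractile ring, had 78.7 and 78.0 FPKM, and Ect2, which activates RhoA at the division plane, had 54.6 and 53.7 FPKM.

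**Figure D4:**
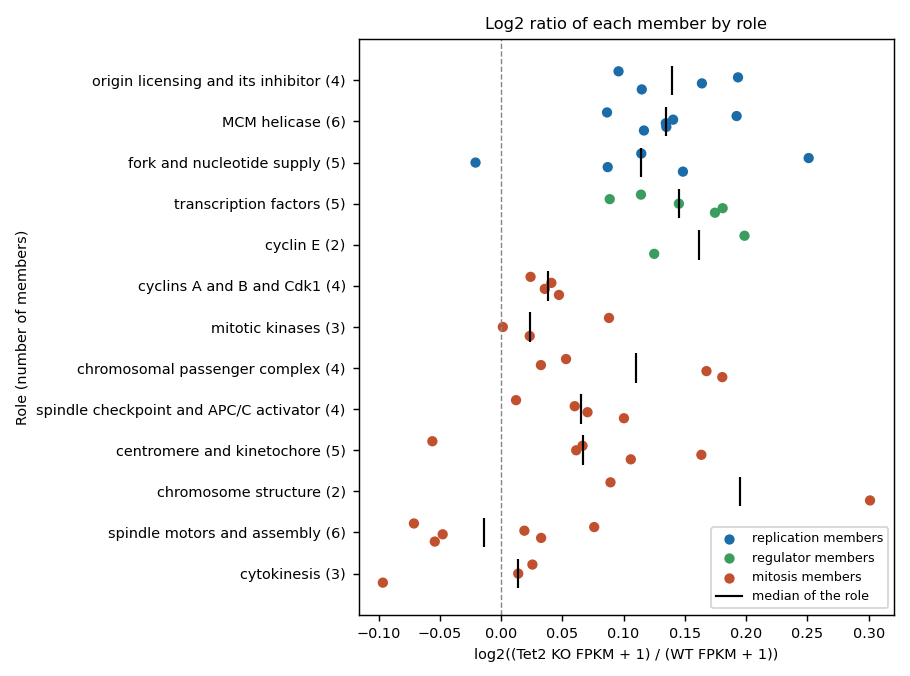
Log2 ratio of Tet2 KO over WT (pseudocount 1) of each member, grouped by role, with the vertical bar at the median of the role and the colour giving the class. Role medians lie at 0.14 for origin licensing, 0.13 for the MCM helicase and 0.15 for the transcription factors, and at 0.04 for cyclins A and B with Cdk1, -0.01 for spindle motors and assembly and 0.01 for cytokinesis.

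The ratios were then set beside the promoter words, which were themselves divided by class. The 7 members with an E2F word had a median log2 ratio of 0.16, a range of 0.09 to 0.19 and a higher value in Tet2 KO in 7 of 7. The 37 members with a promoter but no E2F word had a median of 0.07, with 31 higher. The 23 members with a CHR word had a median of 0.04, with 18 higher, and the 21 without it a median of 0.11, with 20 higher. Of all expressed genes, 48.8% were higher, so each of these groups was above that share. Within the replication members the 6 with an E2F word had a median of 0.15 and the 7 without it one of 0.11. Within the mitosis members the 19 with a CHR word had a median of 0.02, with 14 higher and 5 lower in Tet2 KO. The 7 without it had a median of 0.08, with 7 higher. As 19 of the 26 mitosis members with a promoter held the word, where the few lower ones fell says little about it. These small groups were not tested. Exceptions were found at both ends. Mki67, the member with the largest ratio, held a pair of CHR words, Rrm2 with the next largest held neither word, and Kif23 with the smallest ratio held a CHR word as Mki67 did.

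Further genes of the same processes, listed by function with earlier results of these data known, were counted in the same way. The 46 other replication genes had a median log2 ratio of 0.09, with 40 (87.0%) higher in Tet2 KO, against 48.8% of all genes. At least 1.1-fold higher were 13 (28.3%), against 17.9% of all genes. The largest ratios were those of Mcm10, a firing factor, with 30.4 and 25.1 FPKM, and Pold3, a subunit of DNA polymerase delta, with 22.4 and 18.7 FPKM. The lowest were those of the origin recognition subunits Orc3, with 17.2 and 18.2 FPKM, and Orc5, with 22.2 and 23.4 FPKM. In the 60 other mitosis genes the median was 0.04, with 46 higher, 10 at least 1.1-fold higher and 4 at least 1.1-fold lower. The share at least 1.1-fold lower was 6.67%, against 20.1% of all genes. The share of 16.7% at least 1.1-fold higher is close to the 17.9% of all genes, while the share with a higher value, 76.7%, compares with 48.8% of all genes. They ran from Cenpm, a centromere protein with 9.67 and 12.9 FPKM, and Pttg1 (securin) with 83.9 and 95.6 FPKM to Cdca3 with 66.9 and 53.01 FPKM and Arhgap11a with 23.8 and 17.7 FPKM. The order of the medians, replication above mitosis, was therefore the same as in the members, with a smaller distance. The median log2 ratio of 27 housekeeping genes was 0.01.

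The Rb family with its partners and the cyclin-dependent kinase inhibitors were mostly lower in Tet2 KO. Of these 14 genes, 4 (28.6%) had the higher value in Tet2 KO, against 48.8% of all genes, namely Rbl1, Rbl2, E2f5 and Lin9. Every cyclin-dependent kinase inhibitor listed had the lower value, with differences from -0.61% for Cdkn2b to -32.7% for Cdkn1a. At least 1.1-fold lower were 4 genes (28.6%), against 20.1% of all genes, and 1 was at least 1.1-fold higher (7.14%), against 17.9%. None reached 1.5-fold, and the median log2 ratio was -0.08. The lowest ratios were those of Cdkn1a, the p21 inhibitor, with 36.2 FPKM in Tet2 KO against 53.7 FPKM in WT, and Rb1, with 7.67 and 10.4 FPKM. The highest were those of E2f5, with 10.7 and 9.61 FPKM, and Rbl2, with 5.11 and 4.59 FPKM. The 20 muscle differentiation genes, which are made as myoblasts leave the cycle, were all at least 1.1-fold lower in Tet2 KO, against 20.1% of all genes. They had a median of -1.28 and sums of 2070 and 4941 FPKM. Among them, Tnnc2 with 36.1 and 139.7 FPKM and Myh1 with 20.5 and 77.1 FPKM had the lowest ratios, and Neb with 28.8 and 53.2 FPKM and Tnnt1 with 259 and 375 FPKM the highest. The leukocyte markers had a median of 1.59, the fibroblast markers one of 0.32 and the muscle differentiation genes one of -1.28 in the same pair of values in which the members had 0.09, and the part of each in the values of the members was not tested.

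**Figure D5:**
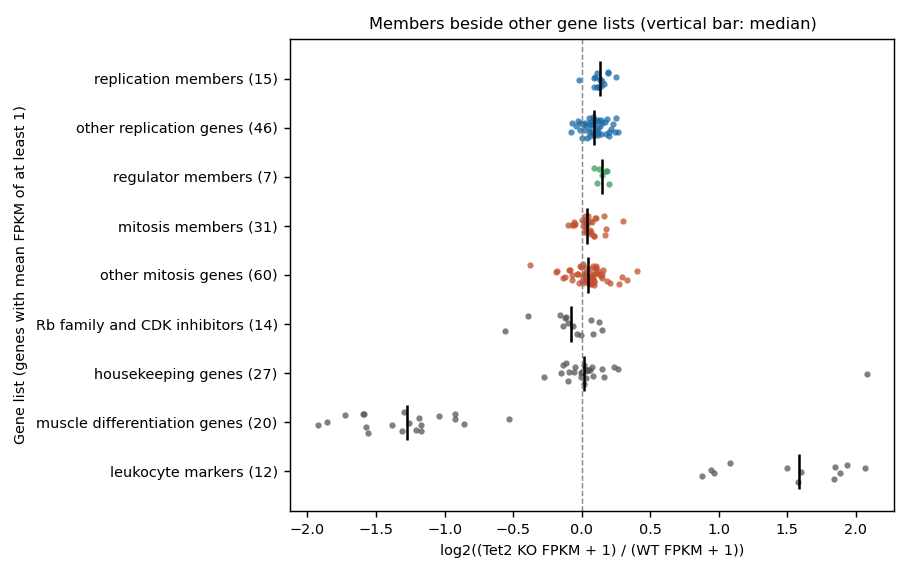
Log2 ratio of Tet2 KO over WT (pseudocount 1) of every expressed gene (mean FPKM of 1 or more) in the 3 member classes and in 6 other lists, with the vertical bar at the median of each list. The members and the other replication and mitosis genes lie close to 0 with medians of 0.04 to 0.15, while the muscle differentiation genes have a median of -1.28 and the leukocyte markers one of 1.59.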

How the data were processed

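RNA from 2 WT and 2 Tet2 KO myoblast libraries had been sequenced as read pairs. According to the study's methods and the submitters' processing notes, the authors checked reads with FastQC, trimmed adapters and low quality reads, aligned them to mm9 with TopHat2 2.0.13 and estimated FPKM with Cuffdiff 2.2.1. The gene annotation and how the libraries of a genotype were combined are not given in the sources used here. The deposited table held 1 FPKM value per gene and genotype, besides the authors' own fold change, statistic, p-value, q-value and call for each gene, which were not used. Read counts were not analysed here, so the depth behind each value is unknown, and counting intervals could not be given.

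For each gene log2 of (Tet2 KO FPKM + 1) over (WT FPKM + 1) was taken. The pseudocount of 1 understates the difference of low genes, and percent differences were taken without it. Genes that averaged 1 FPKM or more formed the background, and folds of 1.1 and 1.5 on the log2 scale served as marks of size. With 1 value for each genotype there was no test, standard deviation or p-value. The genes named were all 53 members and, of the other replication, other mitosis, Rb and kinase inhibitor and differentiation lists, those past 1.5-fold or, where none or over 4 were, the 2 highest and 2 lowest. Other values named were those of Tet2, of E2f4 and of the marker lists. E2f4 and the genes named of the marker lists were picked after their values were seen. The members and lists, like these choices, were made with earlier results of these data known. Gene positions follow the deposited table (mm9), whose starts count from 0 and were raised by 1. Strand, overlaps and transcript length came from GENCODE vM1 of the same build, and stretches of at least 95% identity elsewhere were searched with BLAST+ 2.17.0. Promoters came from RefSeq on GRCm38.p6 and were matched by symbol. Scripts ran in Python 3.11.15 with matplotlib 3.10.9, pandas 2.3.3, numpy 2.4.6 and scipy 1.17.1. The median ratio and the share past 1.5-fold were run on simulated data with a planted change larger than that of any member. That run did not cover the 1.1-fold counts or differences as small as those of the members. Alternatives were the pseudocount, the filter, rescaling to TPM, median centring, narrower member lists and a narrower promoter window.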

Additional observations from a re-analysis of the deposited data

How the results depend on the processing

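No paired analysis was possible because the table held 1 value for each genotype, so that no fit without one of the libraries could be made either. Pseudocounts of 0.1 and 0, no filter on low values, a filter of 5 FPKM, rescaling to TPM and median centring left the direction of each class median and of the difference between classes as it was, with 47 of 53 members higher in Tet2 KO under each. Members at least 1.1-fold higher numbered 14, or 16 after rescaling to TPM or median centring. Of 318 recomputed log2 ratios of single members none changed sign, and 1, that of E2f1 without a pseudocount, moved by more than 0.02. With only the Mcm, Cdc6, Rrm, Kif, Bub1 and Cenp genes the mitosis median was 0.066 and its difference from the replication median -0.069. In the promoter window from 100 bases before to 50 after the start, the E2F word was in 3 replication members and in 265 genes of the promoter table, and the CHR word in 2494 genes. An alternative chosen after seeing the data left out 7 members with shared sequence or exons. It gave 40 members higher, 12 at least 1.1-fold higher and a difference between the class medians of -0.09. Without values per library, no difference of the size seen in the members can be set against the spread between libraries.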
